A study of Mus musculus with 4 samples.

Results

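The follicular B cell surface genes described here are 7 genes, Ms4a1, Fcer2a, Cr2, Bank1, Cd83, Cxcr4 and Samsn1, out of the 31054 features counted in each library. They were chosen by symbol, and their raw UMI counts were followed across B cells, plasma cells and other cells and across the libraries. The study profiled mouse mammary tumours by droplet single-cell RNA sequencing in 4 libraries, 1 for each combination of tumour model and therapy. In the treated T11-Apobec group, T11-Apobec tumour cells grew in mammary gland number 4 of female mice of the strain labelled Balbc, and anti-PD1 at 10 mg/kg plus aCTLA4 at 100 µg was given biweekly from a tumour diameter of 5 mm until collection after 7 days. The untreated T11-Apobec group had the same tumour cells, site and strain and no therapy. The treated and untreated KPB25Luv groups were set up likewise with KPB25Luv tumour cells in female FVB/NJ mice. Tumours were assigned to treatment at random at that diameter. The ages of the mice, the number of tumours in a library and the collection time of untreated tumours were not given in the sources used here. Model and strain cannot be told apart, and with 1 library per group no difference has a replicate check. All intervals are 95% intervals that cover counting error only.

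B lymphocytes that recirculate through the follicles of lymphoid organs carry a set of surface receptors that tune their antigen response. Ms4a1 encodes CD20, a tetraspanning protein of the B cell membrane. Cr2 encodes the complement receptors CD21 and CD35, which bind C3 fragments and lower the threshold of the B cell receptor, and Fcer2a encodes CD23, the low-affinity IgE receptor, which is typical of follicular B cells. Cd83 encodes a membrane protein that appears on activated B cells and mature dendritic cells and keeps MHC class II and CD86 on the surface by opposing the ubiquitin ligase MARCH1. Cxcr4 encodes the receptor of the chemokine CXCL12 and is used by nearly all leukocytes. Bank1 and Samsn1 encode cytoplasmic adaptor proteins, so the label "surface" does not hold for these 2 members. BANK1 acts downstream of the B cell receptor, and SAMSN1 is known as a negative regulator of B cell activation.

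The deposited matrices held 5509 to 11304 cell barcodes per library with medians of 3653 to 8893 UMIs, and 5051 to 9469 cells per library were kept. Libraries shared 34 to 125 barcodes in each pair, at most 1.85% of the smaller library. A cell with at least 2 UMIs of Jchain was put in the plasma gate, a remaining cell with at least 2 UMIs of Cd79a and Cd79b together in the B gate, and the rest were called other cells. To place the members among these other cells, T, NK, dendritic, macrophage, neutrophil and endothelial gates were set on marker UMIs in the same way (Cd3d, Cd3e and Cd3g for T cells, C1qa, C1qb, C1qc, Csf1r and Ms4a7 for macrophages), and cells that passed none are called remaining cells. The B gate held 819 of 5830 cells in treated T11-Apobec tumours and 152 of 9469 cells in untreated ones, and 660 of 5051 cells in treated KPB25Luv tumours against 237 of 6140 cells in untreated ones. The plasma gate held 65, 2, 142 and 3 cells in the same order of libraries. Because a fixed number of UMIs is passed more easily by a deep cell, the B gate was not equally pure. In the KPB25Luv untreated library, 63 of 237 B-gate cells had under 1 Cd79 UMI per 1000 UMIs, with a median depth of 20884 UMIs, and held 77.0% of all UMIs in the gate. They showed a median of 1 of 12 B cell markers, against 7 of 12 in the B-gate cells with at least 1 per 1000. Such cells made up 48 of 660, with 26.1% of the UMIs, in treated KPB25Luv tumours. In T11-Apobec they were 33 of 819 in the treated library, with 19.8% of the UMIs, and 22 of 152 in the untreated library, with 54.9%. The therapy comparison is therefore given also in depth-scaled B cells, which needed at least 1 Cd79 UMI per 1000 UMIs of the cell as well, a rule chosen after the data were seen. The other gates were scaled likewise wherever a gate is called depth-scaled, and remaining cells then include cells that passed a fixed gate only. By this scaling remaining cells rose from 2140 to 3718 in untreated KPB25Luv tumours, while T-gate cells fell from 2487 to 1188. Depth-scaled B cells were 789 and 130 cells in treated and untreated T11-Apobec tumours, with medians of 1619 and 889 UMIs. In treated and untreated KPB25Luv tumours they were 628 and 176 cells, with medians of 2607 and 2029 UMIs. They include cells that left the plasma gate because their Jchain UMIs were under 1 per 1000. In treated KPB25Luv tumours, 612 cells of the fixed B gate had at least 1 Cd79 UMI per 1000, against the 628 depth-scaled B cells.

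Levels are in CPM, the UMIs of the gene scaled to all UMIs of the cells summed. Ms4a1, Fcer2a, Cr2 and Bank1 were at least 117-fold higher in B-gate cells than in the sum of other cells in each of the 4 libraries. Bank1 was not absent from macrophages, where the depth-scaled gate gave 16.95 CPM, with a UMI in 54 of 485 cells, in untreated KPB25Luv tumours and 4.63 CPM in untreated T11-Apobec tumours. Ms4a1 stood at 949 CPM (906 to 994) in B-gate cells and 0.886 CPM in other cells of treated T11-Apobec tumours, a 1071-fold difference. The same pair of values was 358 and 0.369 CPM in untreated T11-Apobec tumours, 1302 and 1.45 CPM in treated KPB25Luv tumours, and 310 and 0.733 CPM in untreated KPB25Luv tumours. The lowest of these 4 ratios was 423-fold, in the mixed gate of untreated KPB25Luv tumours. In depth-scaled B cells that library's ratio was 1423-fold, and the lowest was 686-fold, in treated T11-Apobec tumours. Fcer2a was 280-fold to 1372-fold higher in B-gate cells than in other cells over the 4 libraries, Cr2 189-fold to 751-fold and Bank1 117-fold to 1173-fold. In depth-scaled B cells the ranges were 567-fold to 1365-fold for Fcer2a, 304-fold to 1046-fold for Cr2 and 406-fold to 1442-fold for Bank1. Cd83, Cxcr4 and Samsn1 were higher in B-gate cells by far smaller factors. Cd83 was 5.83-fold to 43.1-fold higher, and Samsn1 2.66-fold to 6.46-fold. Cxcr4 was 6.35-fold, 21.8-fold and 2.96-fold higher in treated T11-Apobec, untreated T11-Apobec and treated KPB25Luv tumours, and 1.19-fold higher in untreated KPB25Luv tumours, where B-gate cells had 8.92 CPM (5.10 to 14.5) and other cells 7.47 CPM (6.88 to 8.10). These last ranges overlap, and in depth-scaled B cells of that library Cxcr4 stood at 33.0 CPM against 7.36 CPM in the rest. Counted at 2-fold or more, 7 of 7 members were higher in B-gate cells in treated T11-Apobec tumours, where 9.33% of 14334 genes were, and 7 of 7 in untreated T11-Apobec tumours, where 13.3% of genes were. In treated KPB25Luv tumours 7 of 7 members were higher, where 5.75% of genes were, and in untreated KPB25Luv tumours 6 of 7, where 6.64% of genes were.

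**Figure D1:**
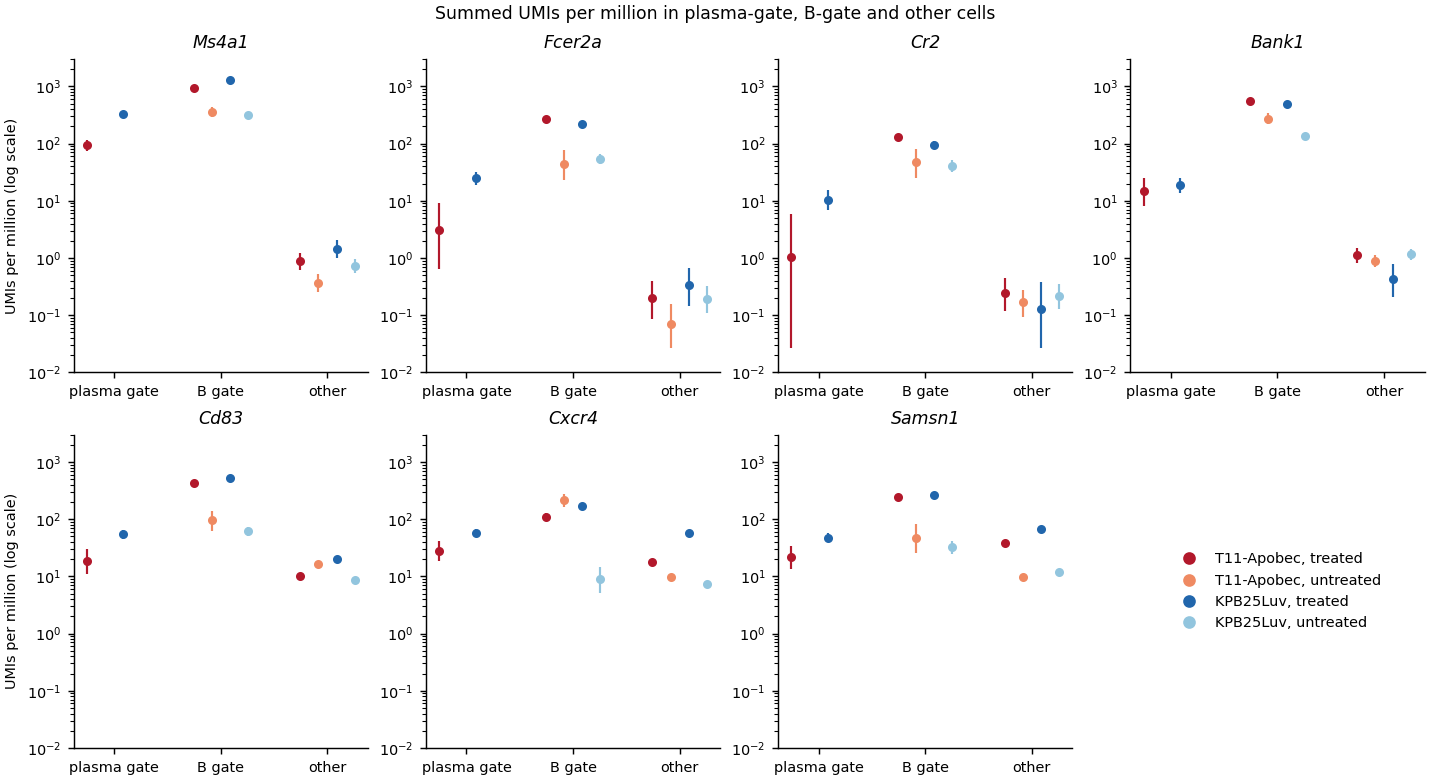
Level of each gene in CPM (log scale) in plasma-gate, B-gate and other cells of the 4 libraries, with 95% counting intervals; plasma gates under 20 cells are left out. Ms4a1, Fcer2a, Cr2 and Bank1 lie at or below 1.45 CPM in other cells, while Cd83, Cxcr4 and Samsn1 lie between 7.47 and 66.1 CPM there.

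Plasma cells are antibody-secreting cells that shut off most of the B cell surface programme. In the plasma gate of the treated libraries, every one of the 7 members was at least 2-fold lower than in B-gate cells, where 26.5% of 9701 genes were in T11-Apobec and 14.5% of 10500 genes in KPB25Luv. Fcer2a had 3.14 CPM in plasma-gate cells and 270 CPM in B-gate cells of treated T11-Apobec tumours, and 24.8 against 221 CPM in treated KPB25Luv tumours. Bank1 had 14.7 against 553 CPM in T11-Apobec and 18.9 against 499.5 CPM in KPB25Luv. Cxcr4 was the member that differed least, with 28.3 against 111 CPM, 3.94-fold lower in plasma-gate cells of T11-Apobec, and 57.6 against 171 CPM, 2.97-fold lower, in KPB25Luv. Ms4a1 kept 93.2 CPM in the plasma gate of T11-Apobec and 332 CPM in that of KPB25Luv. Of the plasma-gate cells, 41 of 65 in T11-Apobec and 102 of 142 in KPB25Luv also passed the B gate, and Ms4a1 was seen in 73 of the 142. The markers of plasma cells (8 genes such as Xbp1 and Mzb1) summed to 6896 CPM in plasma-gate and 685 CPM in B-gate cells of T11-Apobec and to 5335 and 823 CPM in those of KPB25Luv. With 2 and 3 plasma-gate cells, the untreated libraries gave no comparison. Depth-scaled gates held 43 and 87 plasma-gate cells in treated T11-Apobec and KPB25Luv tumours. All 7 members were again at least 2-fold lower there, where 45.6% of 8280 and 28.1% of 9114 genes were. In these gates of KPB25Luv, Fcer2a stood at 14.0 against 295 CPM, and Cxcr4 was 2.33-fold lower.

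To take depth out of the shares of cells, each cell was thinned to 1000 UMIs, which left 779 of 789 and 44 of 130 depth-scaled B cells in treated and untreated T11-Apobec tumours and 625 of 628 and 173 of 176 in treated and untreated KPB25Luv tumours. Ms4a1 was then seen in 66.0% (62.5 to 69.3) of B cells of treated T11-Apobec tumours, against 45.5% (30.4 to 61.2) in untreated ones, and in 80.8% (77.5 to 83.8) of B cells of treated KPB25Luv tumours, against 77.5% (70.5 to 83.5) in untreated ones. Before thinning these shares were 82.9%, 46.2%, 96.5% and 89.2%. Cells of the T gate, which should lack CD20, gave 0.0818% to 0.342% after thinning, far below the share in B cells of every library. Fcer2a was seen in 28.5% and 2.27% of thinned B cells of treated and untreated T11-Apobec tumours, the second being 1 of 44 cells, and in 26.7% and 22.0% of those of treated and untreated KPB25Luv tumours. A B cell showed 2.34 and 1.52 of the 7 members on average in treated and untreated T11-Apobec tumours and 2.63 and 1.91 in treated and untreated KPB25Luv tumours. A T-gate cell showed 0.0971 to 0.216 members.

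Where the UMIs of a gene came from differed between these members. In treated T11-Apobec tumours, depth-scaled B cells held 92.8% of the Ms4a1, 96.5% of the Fcer2a, 91.5% of the Cr2 and 92.8% of the Bank1 UMIs of the whole library, although they were 13.5% of its cells. They held 64.8% of the Cd83, 21.6% of the Cxcr4 and 22.0% of the Samsn1 UMIs. In treated KPB25Luv tumours they held 86.1% to 96.9% of the UMIs of the first 4 genes. In untreated T11-Apobec tumours, where B cells were 1.37% of cells, they held 70.0% of the Ms4a1, 66.7% of the Fcer2a, 48.1% of the Cr2 and 49.0% of the Bank1 UMIs, and the macrophage gate held 32.2% of Bank1. Remaining cells of that library held 28.5% of the Ms4a1, 33.3% of the Fcer2a and 40.7% of the Cr2 UMIs. In it 251 cells had 1 Cd79 UMI, too few for the B gate, and whether B cells were missed was not tested. In untreated KPB25Luv tumours depth-scaled B cells held 88.4%, 80.3%, 78.0% and 69.6% of the UMIs of the same 4 genes in that order, and the macrophage gate held 18.5% of Bank1. B cells of untreated T11-Apobec tumours held 1.58% of the Cd83 UMIs, and the macrophage gate held 91.98%. The T gate carried the largest share of Cxcr4 in treated KPB25Luv tumours, 65.2%, and of Samsn1, 54.0%. In untreated KPB25Luv tumours remaining cells held 40.9% of the Cxcr4 and 34.5% of the Samsn1 UMIs, the T gate 24.0% and 23.1%, and the neutrophil gate 17.4% and 16.8%. In sums over a whole tumour, fewer cells of a type cannot be told apart from less RNA per cell. Over all kept cells, Cd83 stood at 28.6 CPM in treated and 16.6 CPM in untreated T11-Apobec tumours, and at 68.4 CPM in treated and 9.73 CPM in untreated KPB25Luv tumours.

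**Figure D2:**
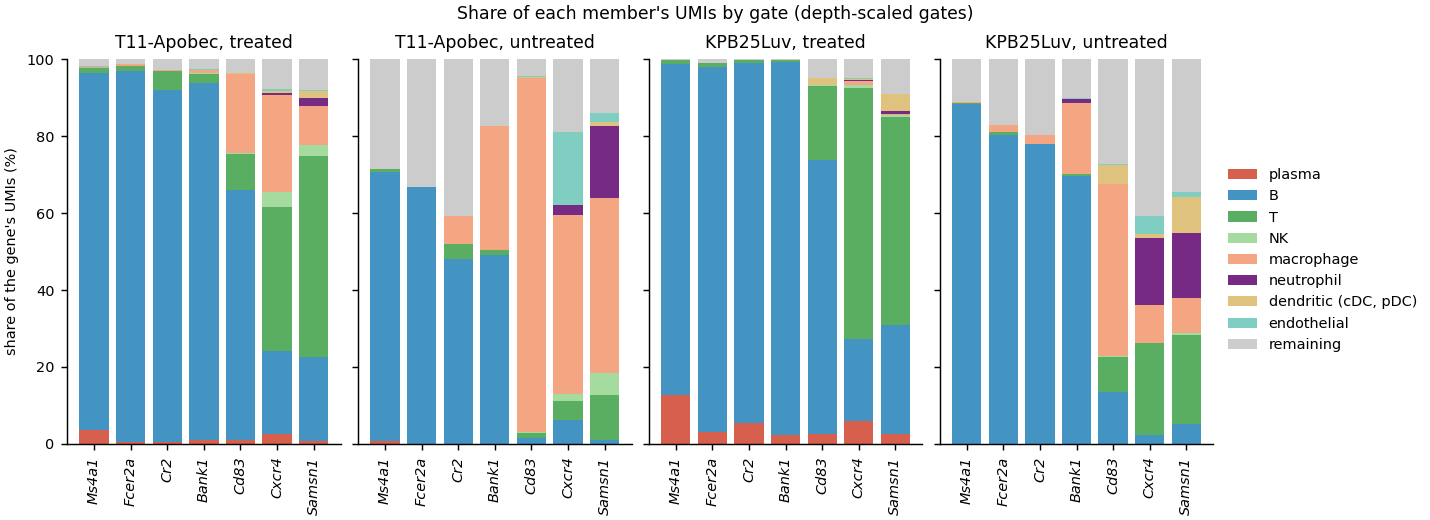
Share of each gene's UMIs (%) by gate in each library, with gates scaled by depth. "Remaining" cells passed no depth-scaled gate and include cells that passed a fixed gate only. B cells hold 86.1% to 96.9% of the Ms4a1, Fcer2a, Cr2 and Bank1 UMIs in treated tumours, against 48.1% to 88.4% in untreated ones. Of the Cxcr4 and Samsn1 UMIs they hold 21.2% to 28.4% in treated tumours, against 1.07% to 6.16% in untreated ones.

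The 7 genes lie on 6 chromosomes, in GRCm38 coordinates of GENCODE M21: Ms4a1 at chr19:11249675-11266241, Fcer2a at chr8:3681737-3694175, Cr2 at chr1:195136811-195176716, Bank1 at chr3:136053363-136326066, Cxcr4 at chr1:128588199-128592293 and Samsn1 at chr16:75858793-76022281, all 6 on the minus strand, and Cd83 at chr13:43784775-43803132 on the plus strand. All are protein-coding. RefSeq promoter windows on GRCm38.p6, running from 250 bases before to 50 bases after the annotated start, were matched for 5 of the 7 members. Printed here, 5′ to 3′ on the gene's minus strand, are the windows of Fcer2a, a member at no more than 0.341 CPM in other cells, and of Cxcr4 and Samsn1, the members with the broadest levels. Capitals mark matches, on either strand, to the TATA box (TATAAA), the GC box (GGGCGG) or the core of PU.1 sites (GAGGAAG).
Fcer2a: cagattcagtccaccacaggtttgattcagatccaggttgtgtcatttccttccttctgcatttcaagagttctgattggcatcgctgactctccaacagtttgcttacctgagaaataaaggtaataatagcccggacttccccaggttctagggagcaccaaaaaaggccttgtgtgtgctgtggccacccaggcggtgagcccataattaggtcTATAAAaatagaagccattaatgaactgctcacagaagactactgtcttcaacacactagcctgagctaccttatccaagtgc
Cxcr4: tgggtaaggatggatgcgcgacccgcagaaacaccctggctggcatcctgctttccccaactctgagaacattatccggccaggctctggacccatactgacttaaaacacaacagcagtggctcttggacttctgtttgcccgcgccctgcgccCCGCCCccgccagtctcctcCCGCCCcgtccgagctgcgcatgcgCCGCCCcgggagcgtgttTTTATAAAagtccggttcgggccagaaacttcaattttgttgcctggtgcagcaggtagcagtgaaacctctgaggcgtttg
Samsn1: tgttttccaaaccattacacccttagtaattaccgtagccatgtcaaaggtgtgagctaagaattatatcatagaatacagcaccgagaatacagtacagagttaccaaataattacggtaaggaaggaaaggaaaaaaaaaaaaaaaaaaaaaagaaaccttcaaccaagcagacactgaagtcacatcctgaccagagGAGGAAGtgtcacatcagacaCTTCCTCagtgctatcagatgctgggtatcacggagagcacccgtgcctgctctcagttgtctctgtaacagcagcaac
The windows are chr8:3694125-3694424 for Fcer2a, chr1:128592250-128592549 for Cxcr4 and chr16:75909217-75909516 for Samsn1. The Samsn1 window lies inside the gene, 113015 bases from the outer start in GENCODE. Fcer2a held TATAAA at -33 from its start. Cxcr4 held it at -30, with an overlapping match on the other strand at -32, and had GGGCGG on the opposite strand at -95, -75 and -50. Samsn1 held GAGGAAG at -50 and, on the opposite strand, at -29, and no TATAAA. Of 32851 promoter windows of this length, 13.6% held TATAAA, 35.7% held GGGCGG and 13.6% held GAGGAAG. The E2A E-box, CACCTG, was held by 20.2% of windows, the AP-1 site, with the letters TGACTCA, by 5.20%, and the kB site by 1.63%, and none of these was in the 3 windows printed. Of the windows not shown, Cr2 held CACCTG at -88 and GGGCGG on the opposite strand at -118 and -99, and Bank1 held CACCTG at -145 and TATAAA at -234. The matches describe the letters of these windows and were not tied to binding or to the UMI counts.

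For the response to therapy, the question was how the B cells of treated tumours differ from those of untreated tumours in each model. By the fixed gate, 6 of 7 members were at least 1.5-fold higher and 1 lower in treated than in untreated T11-Apobec tumours, where 18.1% of 9187 genes were higher and 28% lower. In KPB25Luv, 7 of 7 members were higher and none lower, where 23.9% of 10665 genes were higher and 35.7% lower. Other B cell genes moved the same way under this gate: of 15 genes of B cell identity (the list with Pax5 and Ebf1), 10 were higher in T11-Apobec, with a median log2 ratio of 0.85, and 15 in KPB25Luv, with a median of 1.77, beside medians over all genes of -0.12 and -0.16. In depth-scaled B cells the same 15 genes had medians of 0.12 and 0.32. There, 4 of 7 members were higher and 1 lower in T11-Apobec, where 22.5% of 7947 genes were higher and 26.1% lower, and 3 of 7 were higher and none lower in KPB25Luv, where 18% of 8768 genes were higher and 20.5% lower. The ratios below are log2 of treated over untreated with 0.5 counts added, and the depth-scaled values come first because the fixed gate of the untreated libraries is mixed.

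**Figure D3:**
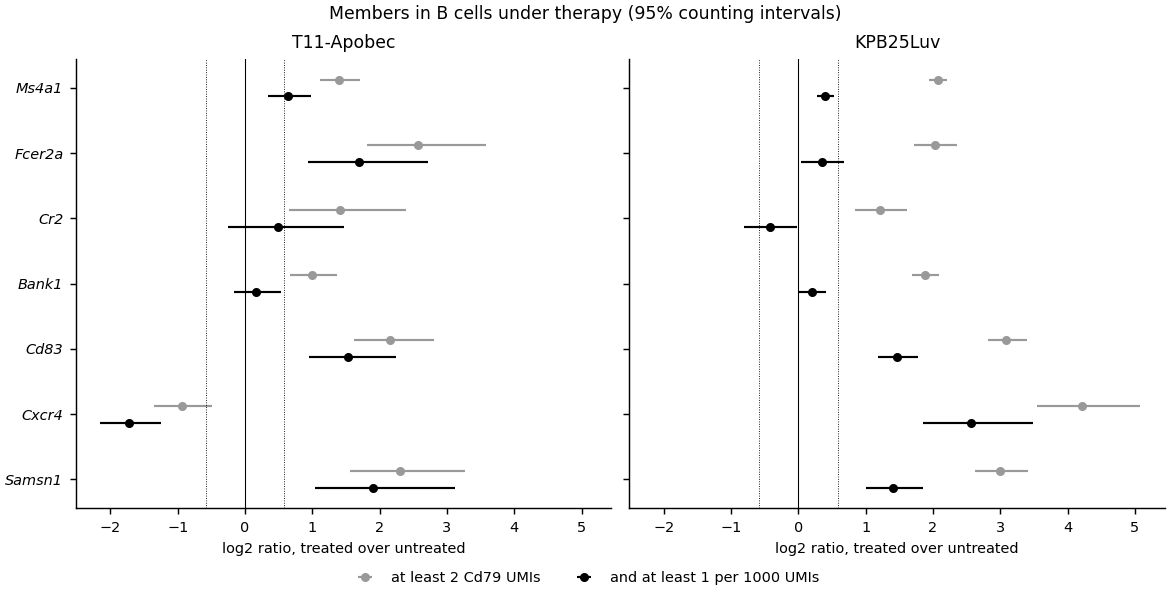
Log2 ratio of treated over untreated for each gene in B cells of both models, by the fixed gate (grey) and in depth-scaled B cells (black), with 95% counting intervals; dotted lines mark 1.5-fold. Cd83 and Samsn1 lie above 1.5-fold in both models by both gates, and Cxcr4 lies at -1.72 in T11-Apobec and 2.56 in KPB25Luv in depth-scaled B cells.

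Cd83 and Samsn1 were higher in B cells of treated tumours in both models. Cd83 had 805 UMIs, 526 CPM (490 to 563), in depth-scaled B cells of treated T11-Apobec tumours and 22 UMIs, 179 CPM (112 to 270), in those of untreated tumours. The log2 ratio was 1.53 (0.95 to 2.24). In KPB25Luv it had 682 CPM (646 to 719) in the treated and 245 CPM (200 to 297) in untreated tumours, for a log2 ratio of 1.47 (1.19 to 1.78). The 2 treated libraries were both above the 2 untreated ones. Samsn1 stood at 289 CPM (262 to 317) against 73.0 CPM (33.4 to 139) in T11-Apobec, on 442 and 9 UMIs, a log2 ratio of 1.91 (1.04 to 3.12). In KPB25Luv it stood at 326 CPM (302 to 352) in treated and 123 CPM (91.6 to 161) in untreated tumours, a log2 ratio of 1.40 (1.004 to 1.85). By the fixed gate the ratios of Cd83 were 2.16 and 3.09 and those of Samsn1 2.30 and 2.995 in T11-Apobec and KPB25Luv. After thinning, Cd83 was seen in 35.7% against 18.2% of B cells in T11-Apobec and in 47.4% against 22.0% in KPB25Luv.

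Samsn1 was seen more often in B cells with a Cd83 UMI than in those without one. Among thinned B cells of treated T11-Apobec tumours, Samsn1 was seen in 34.9% (29.3 to 40.8) of the 278 cells with a Cd83 UMI and in 16.6% (13.4 to 20.1) of the 501 without. In treated KPB25Luv tumours the shares were 27.7% of 296 cells and 19.1% of 329 cells, with intervals of 22.7 to 33.2 and 15.0 to 23.8 that overlap slightly. In untreated KPB25Luv tumours they were 28.9% of 38 cells and 5.19% of 135 cells. In untreated T11-Apobec tumours only 8 thinned B cells had Cd83, and 2 of them had Samsn1. Among activation genes, Il4i1, an amino acid oxidase of activated B cells, had 302 CPM in treated T11-Apobec B cells with Cd83 and 186 CPM in those without, a log2 ratio of 0.70 (0.26 to 1.14), and 284 and 289 CPM in treated KPB25Luv B cells. Myc, a growth regulator, had 115 and 57.7 CPM in treated KPB25Luv B cells, a log2 ratio of 0.98 (0.14 to 1.88), and 39.6 and 27.9 CPM in treated T11-Apobec B cells. Cd86, a costimulatory ligand, had 36.0 and 57.9 CPM in T11-Apobec, a log2 ratio of -0.64 (-1.89 to 0.39), and 139 and 128 CPM in KPB25Luv. These 3 genes were chosen after their values were seen. Of 14 measured activation genes, 1 was at least 1.5-fold higher and 1 lower in treated T11-Apobec B cells with Cd83 than without (median log2 ratio 0.37). In treated KPB25Luv B cells 1 of 15 was higher and none lower (median 0.05). Fcer2a was seen in 29.1% of treated T11-Apobec B cells with Cd83 and 28.1% of those without, and Cr2 in 18.0% (13.7 to 23.0) and 12.97% (10.2 to 16.2), ranges that overlap. In treated KPB25Luv B cells Cr2 was seen in 11.5% of cells with Cd83 and 12.5% of cells without.

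In macrophages Cd83 was lower in treated tumours. In the macrophage gate it stood at 41.0 CPM in treated and 124 CPM in untreated T11-Apobec tumours, a log2 ratio of -1.59 (-1.80 to -1.40). In KPB25Luv it was 6.36 CPM, on 2 UMIs, in 55 treated cells and 94.6 CPM in 485 untreated cells, a log2 ratio of -3.58 (-6.95 to -2.03). In remaining cells Cd83 was low and higher in treated tumours, at 2.11 against 0.893 CPM in T11-Apobec and 24.2 against 3.09 CPM in KPB25Luv. In the T gate, Cd83 was at 9.19 against 24.7 CPM in T11-Apobec and at 18.6 against 13.8 CPM in KPB25Luv. Samsn1 was above its B cell level in several gates. Neutrophil-gate cells had 503 and 1111 CPM in treated and untreated T11-Apobec tumours, on 36 and 152 cells, and 232 CPM in 437 cells of untreated KPB25Luv tumours. Conventional dendritic cells of that library, 21 cells, had 554 CPM of Samsn1 and 233 CPM of Cd83, and the 19 such cells of treated KPB25Luv tumours had 827 and 297 CPM. In the T gate Samsn1 was lower in treated T11-Apobec tumours, at 81.7 against 136 CPM, the second being above the 73.0 CPM of untreated B cells, and it was at 61.9 against 44.98 CPM in KPB25Luv.

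**Figure D4:**
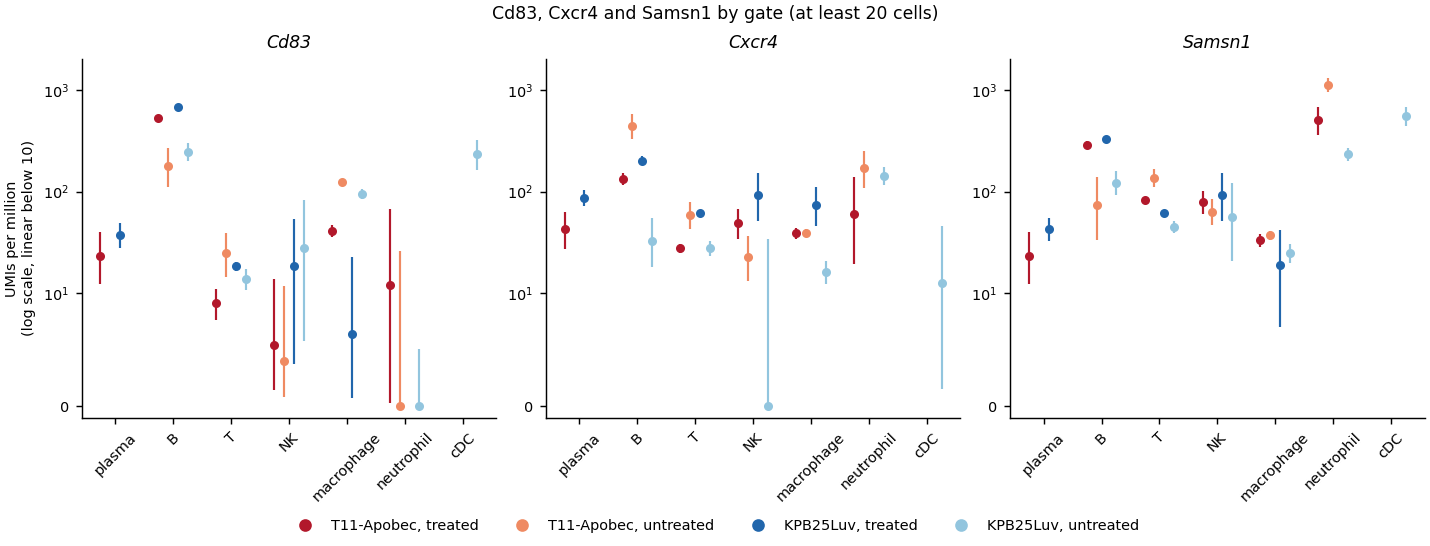
Level in CPM (log scale, linear below 10) of Cd83, Cxcr4 and Samsn1 in depth-scaled gates with at least 20 cells, with 95% counting intervals. Cd83 is higher in treated than in untreated B cells (526 against 179 and 682 against 245 CPM) and lower in treated macrophage-gate cells (41.0 against 124 and 6.36 against 94.6 CPM).

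Cxcr4 was the only member whose ratios had opposite signs in the 2 models with both intervals off 0. In depth-scaled B cells of T11-Apobec it had 205 UMIs, 134 CPM (116 to 153), in the treated library and 54 UMIs, 438 CPM (329 to 572), in untreated tumours, for a log2 ratio of -1.72 (-2.15 to -1.25). In KPB25Luv it had 408 UMIs, 201 CPM (182 to 222), in the treated library and 14 UMIs, 33.0 CPM (18.0 to 55.4), in untreated tumours, for a log2 ratio of 2.56 (1.85 to 3.49). The treated libraries of both models thus lay between the untreated ones, and the spread was widest among untreated B cells. By the fixed gate the ratios were -0.94 in T11-Apobec and 4.22 in KPB25Luv. With at least 500 detected genes per cell, which left 813 treated and 74 untreated B-gate cells in T11-Apobec, its ratio was -0.26 and under 1.5-fold, while it was 4.22 in KPB25Luv. After thinning, Cxcr4 was seen in 14.0% (11.6 to 16.6) of treated and 29.5% (16.8 to 45.2) of untreated T11-Apobec B cells, and in 21.8% (18.6 to 25.2) of treated and 2.89% (0.945 to 6.62) of untreated KPB25Luv B cells. The difference between the models was not tested.

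Cxcr4 also differed in other gates. In the T gate it stood at 27.7 against 59.0 CPM in T11-Apobec, a log2 ratio of -1.10 (-1.55 to -0.60), and at 61.9 against 27.7 CPM in KPB25Luv, a log2 ratio of 1.15 (0.91 to 1.42). In the macrophage gate it was level in T11-Apobec, 38.7 against 39.2 CPM, and higher in KPB25Luv, 73.1 against 16.1 CPM, a log2 ratio of 2.20 (1.42 to 2.90). In the NK gate of T11-Apobec it was higher, 48.8 against 22.8 CPM. Genes that respond to tissue dissociation, such as the immediate early genes Fos and Dusp1, were followed in the same gates. They went the same way as Cxcr4 in some gates and not in others. Of 9 of 12 such genes with enough UMIs in T11-Apobec B cells, none was higher and 7 were at least 1.5-fold lower in the treated library, with a median log2 ratio of -1.05. Dusp1 was at 176 against 730 CPM and Fos at 268 against 698 CPM. In KPB25Luv B cells 4 of 9 were higher and none lower, with a median of 0.45, Fos being at 477 against 349 CPM. In the T gate the list's median was -0.73 in T11-Apobec and 0.19 in KPB25Luv, each with the sign of the Cxcr4 ratio. In remaining cells of KPB25Luv the list's median was 1.16, and Cxcr4 was higher too. In the macrophage gate the list's median was -1.31 in T11-Apobec, where Cxcr4 was level, and -0.38 in KPB25Luv, where Cxcr4 was higher. In remaining cells of T11-Apobec Cxcr4 had a log2 ratio of 0.55 (0.13 to 0.95) and the list a median of -0.96. In the NK gate of T11-Apobec the list's median was 0.01. In the neutrophil gate of T11-Apobec both were lower, at -1.40 for Cxcr4 and -1.20 for the list. The part of dissociation in the Cxcr4 values was not tested. RNA of Cxcl12, the gene of the CXCR4 ligand, stood at 295 and 285 CPM in remaining cells of treated and untreated T11-Apobec tumours. It stood at 26.0 and 8.66 CPM in those of treated and untreated KPB25Luv tumours. Some gated cells held Cxcl12 too. The endothelial gate had 25.1 CPM in untreated T11-Apobec tumours and 81.3 CPM, on 57 cells, in untreated KPB25Luv tumours. The neutrophil gate of treated T11-Apobec tumours had 144 CPM, on 36 cells.

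**Figure D5:**
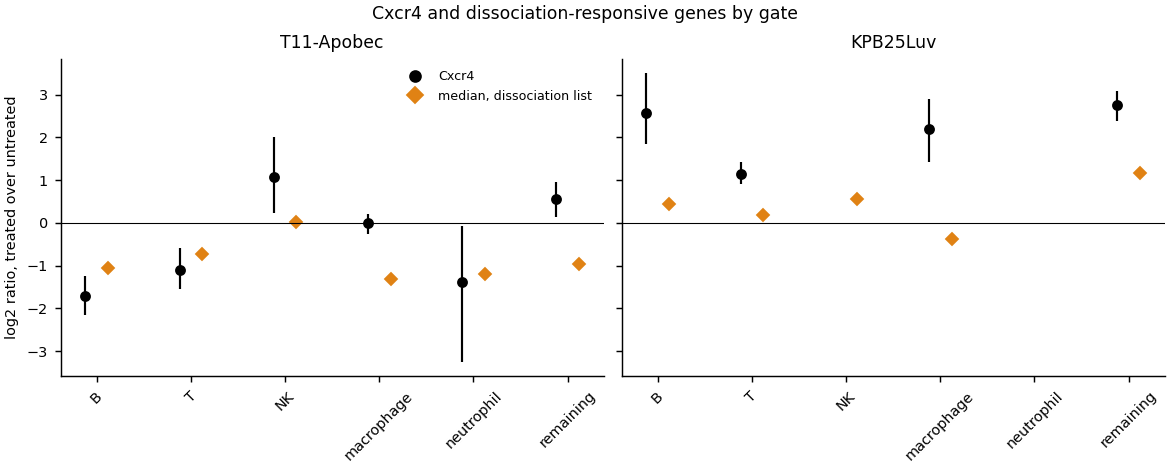
Log2 ratio of treated over untreated for Cxcr4 (circles, with 95% counting intervals) and median log2 ratio of dissociation-responsive genes (diamonds) by depth-scaled gate; gates with under 20 cells in a library, or with no Cxcr4 UMI in one, have no circle. In T11-Apobec both are below 0 in B (-1.72 and -1.05), T and neutrophil-gate cells, while in remaining cells Cxcr4 is at 0.55 and the list at -0.96. In KPB25Luv Cxcr4 is above 0 in the gates shown. The list's median there is above 0 in B, T, NK and remaining cells and -0.38 in macrophages.

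The ratios of Ms4a1, Fcer2a, Cr2 and Bank1 were smaller or turned in sign once the gate was scaled by depth. Ms4a1 stood at 1161 CPM (1107 to 1216) in treated and 739 CPM (595 to 907) in untreated T11-Apobec B cells, a log2 ratio of 0.64 (0.35 to 0.97). It stood at 1756 CPM (1699 to 1815) in treated and 1330 CPM (1222 to 1444) in untreated KPB25Luv B cells, a log2 ratio of 0.40 (0.27 to 0.53) and under 1.5-fold. Its 4 levels did not overlap between treated and untreated within a model, though the untreated KPB25Luv level lay above the treated T11-Apobec one. Fcer2a was higher in treated T11-Apobec B cells, 328 against 97.4 CPM, a log2 ratio of 1.70 (0.94 to 2.72) on 503 and 12 UMIs. In KPB25Luv it was 295 against 231 CPM, a log2 ratio of 0.34 (0.04 to 0.67). Cr2 was at 154 against 106 CPM in T11-Apobec, a log2 ratio of 0.49 (-0.26 to 1.48), and at 125 against 167 CPM in KPB25Luv, a log2 ratio of -0.42 (-0.80 to -0.02). By the fixed gate Cr2 had 1.21 in KPB25Luv, so that the sign turned with the gate. Bank1 was at 668 against 592 CPM and 634 against 552 CPM, with log2 ratios of 0.16 (-0.17 to 0.54) and 0.20 (-0.00 to 0.41), and both intervals lay within 1.5-fold. C3, whose fragments are the ligand of the Cr2 product, was at 228 against 13.4 CPM in macrophage-gate cells of T11-Apobec and at 518 against 7.38 CPM in those of KPB25Luv.

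RNA from other cells also differed between the depth-scaled B cells compared. Summed macrophage markers (9 genes such as Apoe and Lyz2) stood at 1009 against 4878 CPM in treated and untreated T11-Apobec B cells, with 8 and 6 of the 9 detected, and at 199 against 1855 CPM in KPB25Luv, with 7 and 9 detected. Adgre1 was at 0 in the B cells of both T11-Apobec libraries, Csf1r and Fcgr1 also in the untreated one, and Csf1r and C1qa in treated KPB25Luv B cells. The 10 T cell markers summed to 906 against 365 CPM and 754 against 962 CPM. The 5 neutrophil markers summed to 10.4 against 16.2 CPM in T11-Apobec and to 3.45 against 851 CPM in KPB25Luv, with 4 and 5 detected. The part of these cells' RNA in the ratios of Cd83, Cxcr4 and Samsn1 was not tested. With cells that also passed another gate left out, the ratios in depth-scaled B cells were 1.62 and 1.35 for Cd83, -1.65 and 2.51 for Cxcr4 and 2.27 and 1.25 for Samsn1 in T11-Apobec and KPB25Luv.

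Other genes of the B cell programme were compared in the same depth-scaled B cells. Over all genes tested there, 22.5% were higher and 26.1% lower in treated T11-Apobec tumours, with a median log2 ratio of -0.09. In KPB25Luv 18% of genes were higher and 20.5% lower, with a median of -0.05. Of 16 naive and follicular genes, 7 were at least 1.5-fold higher and 1 lower in treated T11-Apobec tumours, with a median log2 ratio of 0.45. They included Ighd, the heavy chain of IgD on naive B cells, at 870 against 454 CPM, and Cxcr5, the receptor that guides B cells into follicles, at 106 against 40.6 CPM. In KPB25Luv 1 of 16 was higher and none lower, with a median of 0.19, and Ighd was at 1015 against 752 CPM. Of 16 measured activation genes, 2 were higher and 6 lower in T11-Apobec, with a median of -0.44: Il4i1 was at 198 against 24.3 CPM, and Nr4a1 and Egr1, immediate early genes induced by antigen receptor signals, were at 15.0 against 122 CPM and 22.2 against 138 CPM. In KPB25Luv 7 of 16 were higher and 1 lower, with a median of 0.53. Myc, at 82.4 against 28.3 CPM, was among those higher. Cd69, an early activation marker, was at 383 against 269 CPM, under 1.5-fold and so not counted. Cd83 was therefore higher in both models beside activation lists whose medians had opposite signs. Egr1 is held by the dissociation list too.

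The counts of this paragraph stand beside the same shares over all genes, 22.5% higher and 26.1% lower in T11-Apobec and 18% and 20.5% in KPB25Luv. Germinal centre genes were low. In KPB25Luv 5 of 10 measured were higher and 1 lower, with a median of 0.69: Fas, a death receptor of germinal centre B cells, had 29.6 against 4.72 CPM, on 60 and 2 UMIs. In T11-Apobec 4 of 12 were measured, with 1 higher and 1 lower. Of 16 measured genes of B cell receptor signalling, 2 were higher and 2 lower in T11-Apobec (median -0.15), and 3 were higher and 1 lower in KPB25Luv (median 0.41). Cd22, an inhibitory receptor, was higher in both, at 233 against 73.0 CPM and 255 against 139 CPM. Of the marginal zone and B1 list, 1 of 8 was higher and 3 lower in T11-Apobec (median -0.41) and 1 of 9 higher and 4 lower in KPB25Luv (median -0.18). Plac8, the gene of this list with the most UMIs, went against both medians. It was at 497 against 187 CPM in T11-Apobec and at 805 against 578 CPM, under 1.5-fold, in KPB25Luv. Of the plasma cell list, 2 of 12 were higher and 2 lower in T11-Apobec (median -0.23), and 5 of 13 higher and 2 lower in KPB25Luv (median 0.39). March1, which encodes the ligase that CD83 opposes, was at 128 (111 to 147) against 146 CPM (86.6 to 231) in T11-Apobec B cells. It was at 147 (131 to 165) against 101 CPM (73.4 to 137) in KPB25Luv B cells. The ranges overlap in both models.

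Across 29 combinations of gate and library with at least 20 cells, the members differed in how closely their levels followed each other. Pearson's r of log2(CPM + 10) among Ms4a1, Fcer2a, Cr2 and Bank1 was 0.94 to 0.99, as a description of points that share libraries and depth. Cd83 reached 0.73 to 0.79 with them, Cxcr4 0.46 to 0.50 and Samsn1 0.21 to 0.30. Among 13785 genes, those most like Ms4a1 included Vpreb3, at 0.98, and Bend5. The most like Fcer2a were Cr2, Blk and Pax5, the most like Cr2 were Blk, Fcer2a and Fcmr, and the most like Bank1 were Cr2, Gm31243 and Blk. For Cd83 they were Txndc16, at 0.87, Rab39 and H2-DMb2, a chain of the MHC class II peptide loader. For Cxcr4 they were Plekhf2, at 0.80, Mfsd14b and Plekhm1, and for Samsn1 they were Ier5, at 0.87, Gpcpd1 and Ppp1r15a.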

How the data were processed

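Each library was made with the 10x Genomics 3' v2 chemistry, per the labels' protocols. The deposited values are raw UMI counts per gene and barcode, and the file headers name Cell Ranger 3.0.2; the genome was mm10, per the submitters' processing notes. Cells with under 200 genes or over 10% mitochondrial UMIs were removed. Scrublet (scanpy 1.11.5) marked as few as 1 barcode by its own threshold, so its highest scores were removed at 0.8% per 1000 barcodes. UMIs were summed per gate and library and scaled to CPM. Ratios of treated over untreated had 0.5 counts added and an exact conditional 95% interval, and a gene needed 10 UMIs in both libraries together. Levels and shares have exact Poisson and Clopper-Pearson intervals. No test was possible with 1 library per group. The ratio code was tested on simulated data. From each gene list, up to 3 genes with the most UMIs and up to 3 with the largest ratio were open to naming. The members and lists were chosen with earlier results of these data known. Some genes that these rules would name are not reported here.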

Additional observations from a re-analysis of the deposited data

Results flagged for a closer look

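Cxcr4 in depth-scaled B cells had a log2 ratio of treated over untreated of -1.721 in T11-Apobec and of 2.56 in KPB25Luv. It is listed here because the treated and untreated libraries differed in opposite directions in the 2 models. The part of therapy or of dissociation in these values was not tested. The difference was not tested, since each group had 1 library.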

How the results depend on the processing

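No paired analysis was possible because each group had 1 library. The log2 ratio of the B-gate share, 3.13 in T11-Apobec, was 3.606 with at least 3 Cd79 UMIs, 4.943 with at least 5, 4.105 with at least 500 genes and 4.978 after thinning to 1000 UMIs. In KPB25Luv, 1.76 became 2.004 and 2.168 with at least 3 and 5 Cd79 UMIs, 2.102 and 2.24 after thinning to 1000 and 500 UMIs, and 2.114 with the depth-scaled gate (2.117 without cells of other gates). The count of members lower in treated T11-Apobec B cells, 1, was 0 with at least 500 genes and 0 at a 2-fold threshold. The count higher in KPB25Luv, 7, was 3 after thinning to 1000 or 500 UMIs and 3 with the depth-scaled gate, also without cells of other gates or centred on the median gene. The count lower in KPB25Luv, 0, was 1 after thinning to 500 UMIs. Cr2 in KPB25Luv turned to -0.1585 with at least 5 Cd79 UMIs, -0.4621 and -1.734 after thinning to 1000 and 500 UMIs, and -0.4243, -0.415 and -0.37 with the depth-scaled gate as such, without cells of other gates and centred. Bank1 turned to -0.009376 in T11-Apobec and -0.06358 in KPB25Luv after thinning to 500 UMIs. The cause was not tested. Over the alternatives run, Cd83 ranged between 1.096 and 2.569 in T11-Apobec and between 1.295 and 3.255 in KPB25Luv, and Cxcr4 between -1.721 and -0.2649 and between 1.554 and 4.38. Untreated T11-Apobec B cells, with 9 to 91 UMIs per member in the depth-scaled gate, set the widest intervals.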
